A study of Mus musculus with 6 samples.

Results

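The SoxC factors Sox4, Sox11 and Sox12, the SoxD factors Sox5, Sox6 and Sox13, and the SoxB2 factor Sox21 were followed in the newborn thoracic spinal cord of mice labelled Myt1-/-. These 7 genes were picked by name from 55487 genes in the deposited expression table, each had 1 row, and the 20 genes of the Sox family and Sry in that table hold the other 13. The study sequenced RNA from 3 Myt1-/- cords and 3 wild-type (WT) cords at postnatal day 0, to look for genes downstream of Myt1, a zinc finger transcription factor. The labels call the animals Myt1-/- or WT and name no allele, strain, sex or Cre driver, and no other treatment, and they leave unstated whether each cord is another animal. P-values therefore measure only the spread between these samples, which may be technical. Values are TPM, which scale a gene's reads to its transcript length and to the total of the sample, so levels of different genes can be set side by side.

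Sox proteins bind DNA through an HMG box, and the subfamilies differ in the parts around it. SoxC proteins carry an activation domain and are known for driving neuronal differentiation in cells that have left the cell cycle, and in mice Sox4 that is kept on in oligodendrocytes interferes with myelination. SoxD proteins pair through a coiled coil and carry no activation domain of their own. In the mouse spinal cord Sox5 and Sox6 hold back the specification and terminal differentiation of oligodendrocytes, in part by opposing SoxE factors like Sox10. Sox21 is a repressor that counters the SoxB1 factors Sox1, Sox2 and Sox3, which keep neural progenitors undifferentiated.

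The gene models place all 7 on the minus strand of GRCm38 (GENCODE M21), on 7 chromosomes. Sox4 (chromosome 13, 28948919 to 28953713), Sox11 (chromosome 12, 27334264 to 27342574) and Sox21 (chromosome 14, 118233232 to 118237030) are each annotated with 1 transcript of 1 exon. Sox12 (chromosome 2, 152393611 to 152398063) has 2 coding transcripts, of 1 and 2 exons. The SoxD genes are split and long, with up to 15 exons over 954 kb in Sox5 (chromosome 6, 143828425 to 144781977), up to 17 exons over 568 kb in Sox6 (chromosome 7, 115470872 to 116038796) and up to 14 exons over 42.1 kb in Sox13 (chromosome 1, 133382303 to 133424377). The table gives 1 value per gene, so the isoforms of the SoxD genes were not told apart. Of the genes annotated inside or across these loci, those with a value reached at most 0.93 TPM in any sample, which was Gm4675 opposite Sox21; Gm26735, opposite Sox4, was not analysed here, and whether the counting used strand is not given in the sources used here.

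The sequence upstream of the SoxC genes and of Sox6 is shown because these are the members with the widest differences between the groups, together with Sox12 as the SoxC gene whose values were nearly equal. Each run is the 250 bases before a RefSeq transcript start (RefSeq, GRCm38.p6), written 5′ to 3′ on the minus strand, at chr13:28953700-28953949 for Sox4, chr12:27342719-27342968 for Sox11, chr2:152398047-152398296 for Sox12 and chr7:115824711-115824960 for the only 1 of 6 Sox6 windows with a match. Capitals mark AAGTT, the core of the site that Myt1 is known to bind, on either strand (AACTT where it lies on the other strand).
Sox4: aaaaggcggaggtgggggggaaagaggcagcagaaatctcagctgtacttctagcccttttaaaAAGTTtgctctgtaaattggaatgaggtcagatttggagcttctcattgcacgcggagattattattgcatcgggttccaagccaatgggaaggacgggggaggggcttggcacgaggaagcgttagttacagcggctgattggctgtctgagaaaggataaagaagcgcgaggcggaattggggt
Sox11: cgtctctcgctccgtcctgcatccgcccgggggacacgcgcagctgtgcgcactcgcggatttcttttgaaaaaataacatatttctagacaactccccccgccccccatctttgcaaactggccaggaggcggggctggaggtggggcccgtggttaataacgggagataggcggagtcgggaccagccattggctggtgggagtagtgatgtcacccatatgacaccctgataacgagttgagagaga
Sox12: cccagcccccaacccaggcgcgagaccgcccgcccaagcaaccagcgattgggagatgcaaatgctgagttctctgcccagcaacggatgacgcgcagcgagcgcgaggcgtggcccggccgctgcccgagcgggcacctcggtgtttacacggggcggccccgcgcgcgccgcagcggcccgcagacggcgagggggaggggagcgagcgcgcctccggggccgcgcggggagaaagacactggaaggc
Sox6: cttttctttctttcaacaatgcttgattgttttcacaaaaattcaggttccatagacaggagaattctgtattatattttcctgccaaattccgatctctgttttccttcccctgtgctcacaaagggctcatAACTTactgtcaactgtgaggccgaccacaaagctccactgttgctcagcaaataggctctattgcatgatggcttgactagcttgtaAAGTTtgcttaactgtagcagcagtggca
AAGTT was found in 2 of the 12 windows that RefSeq gives for the 7 genes, against 35.3% of the 32851 windows searched, which leave out 1 chromosome. The longer AAAGTTT, which contains AAGTT, stood in the same 2 windows, 187 bases before the start in Sox4 and 30 bases before it in Sox6, against 4.2% of all windows. CCAAT was found in 5 of the 12 windows, in Sox4, Sox6, Sox11 and Sox12, against 33.8% of all windows, and Sox4 had 4 matches. GC content of the 4 printed windows was 41.6% in Sox6, 50.8% in Sox4, 58.0% in Sox11 and 74.4% in Sox12. The printed Sox6 window lies inside the gene model. The Sox6 window at the start of the gene model, chr7:116038745-116038994, had no AAGTT and a GC content of 45.2%. A match of letters is a description and no evidence of binding, which was not measured here.

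No gene passed an adjusted p of 0.05 by limma among the 15962 genes tested (0%), and none of the 7 Sox genes did. Before adjustment, 1189 genes (7.45%) had a p under 0.05, of which 690 (4.32%) were higher and 499 (3.13%) lower in Myt1-/-; median-ratio scaling made this 551 higher and 656 lower. In 14.3% of the genes tested the groups stood apart without overlap, with Myt1-/- above WT in 8.91% and below it in 5.38%. Myt1 itself was at 6.14, 5.36 and 5.28 TPM in the Myt1-/- samples, against 11.54, 11.53 and 13.61 TPM in the WT samples. Every Myt1-/- sample thus lay below every WT sample, though the transcript was still measured. The mitochondrial share of TPM was highest in WT replicate 1, at 11.3%, and lay between 8.64% and 9.04% elsewhere. Skeletal muscle markers summed to 166 TPM in Myt1-/- replicate 3, which had the highest Sox4, Sox11, Sox12 and Sox13 values, and to 71.7 TPM in WT replicate 3, against 16.4 to 22.2 TPM in the remaining samples. Their part in the Sox values was not tested.

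All 7 Sox genes were above 1 TPM in every sample and entered the fit. Of the 7, 1 had an unadjusted p under 0.05, against 7.45% of all genes, and 1 had groups that did not overlap, against 14.3% of all genes. Both were Sox4, which is 14.3% of the members, so the members' share of genes with groups apart equals that of the table. The median log2 change of the members was 0.05, against 0.03 over all genes tested. Fold values are ratios of mean TPM, and log2 changes are differences of mean log2(TPM + 1), Myt1-/- minus WT. With this offset of 1 TPM, log2 changes of low genes come out too small.

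**Figure D1:**
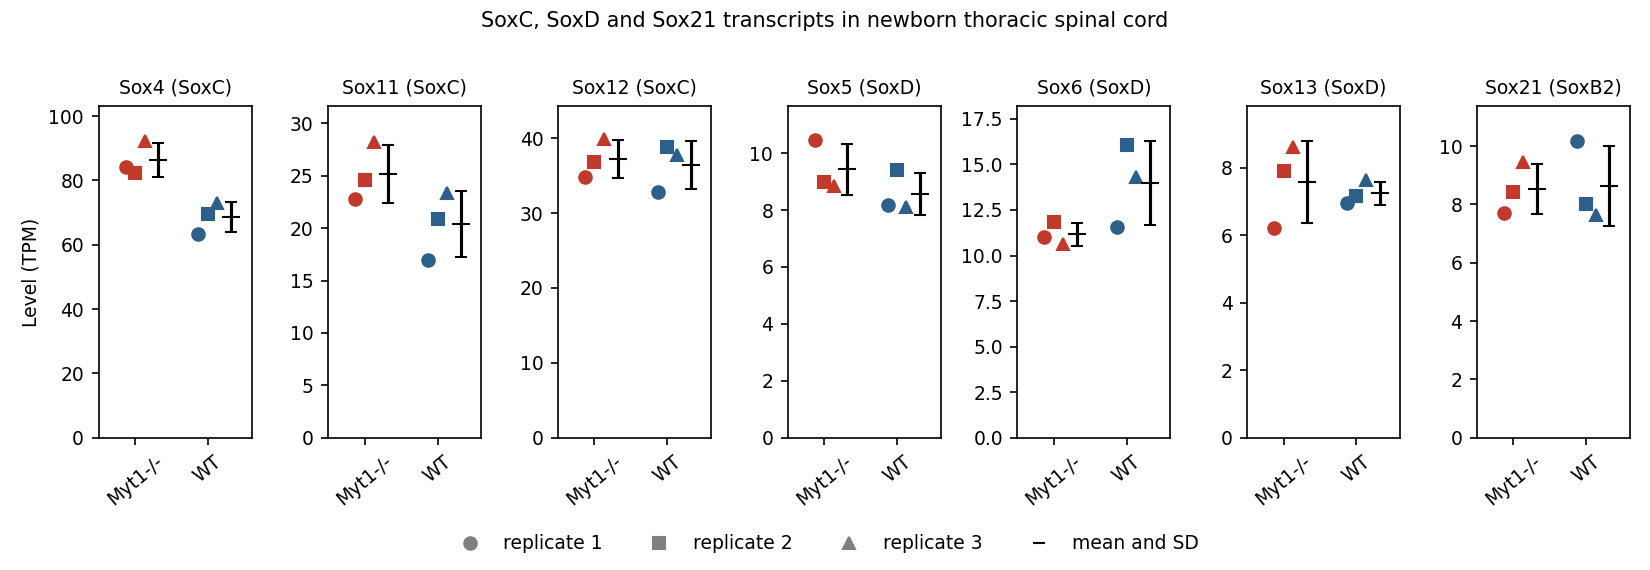
Level in TPM (vertical axes, each from 0 and each with its own range) of the 7 Sox genes in the 3 Myt1-/- samples (red, left) and the 3 WT samples (blue, right), with symbols for the replicate and bars for the mean and SD. Sox4 is the gene whose Myt1-/- samples, at 82.31 to 92.32 TPM, all lie above the WT samples, at 63.50 to 72.89 TPM.

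Sox4 was the most abundant of the 7 and the one whose groups were apart. It was at 84.28, 82.31 and 92.32 TPM in the Myt1-/- samples, against 63.50, 69.61 and 72.89 TPM in the WT samples. The lowest Myt1-/- sample was above the highest WT sample. Its mean was 86.3 ± 5.30 TPM in Myt1-/- and 68.7 ± 4.77 TPM in WT (SD, n = 3 each), 1.26-fold higher. The log2 change was 0.33 (SE 0.071, 95% interval 0.16 to 0.50), with an unadjusted p of 0.00281 and an adjusted p of 0.604 in limma. Sox4 ranked 73 by p among the 15962 genes. With 1 sample left out the log2 change lay between 0.27 and 0.37, and the unadjusted p was under 0.05 in all 14 alternative settings, where the adjusted p lay between 0.501 and 0.942 by limma. In bulk tissue such a difference in the level of a gene can come from the number of cells of a type or from the RNA per cell, which cannot be told apart.

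Sox11, the close relative of Sox4 in differentiating neurons, had the same direction with overlapping groups. It was at 22.75, 24.57 and 28.21 TPM in the Myt1-/- samples, against 17.00, 20.84 and 23.34 TPM in the WT samples. Of the 3 Myt1-/- samples 2 lay above every WT sample, and Myt1-/- replicate 1 lay below WT replicate 3. The mean was 25.2 ± 2.78 TPM in Myt1-/- and 20.4 ± 3.19 TPM in WT (SD, n = 3 each), 1.23-fold higher. The log2 change was 0.30 (SE 0.13, 95% interval -0.02 to 0.61), with an adjusted p of 0.671 by limma. It was 0.18 without WT replicate 1, the sample with the lowest value and the highest mitochondrial share, and 0.40 without WT replicate 3.

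Sox12, the SoxC member with the weakest known activity, differed least of the 3. It was at 34.86, 36.86 and 39.90 TPM in the Myt1-/- samples, against 32.81, 38.82 and 37.75 TPM in the WT samples. Most samples of either group lay within the range of the other. The mean was 37.2 ± 2.54 TPM in Myt1-/- and 36.5 ± 3.21 TPM in WT (SD, n = 3 each), and the log2 change was 0.03 (95% interval -0.17 to 0.23, adjusted p of 0.944 by limma). Its sign turned without WT replicate 1, at -0.04, and without Myt1-/- replicate 3, at -0.02.

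The SoxC genes together summed to 141.89, 143.74 and 160.43 TPM in the Myt1-/- samples, against 113.31, 129.27 and 133.98 TPM in the WT samples. The ratio of the mean sums was 1.18, and 1.13 without WT replicate 1. As a description, the shares of Sox4 and Sox12 in the SoxC sum stood apart between the groups, and those of Sox11 overlapped. Sox4 made up 58.1% ± 1.16 of the SoxC sum in Myt1-/- and 54.8% ± 1.14 in WT, and Sox12 made up 25% ± 0.554 in Myt1-/- and 29.1% ± 0.931 in WT (SD, n = 3 each). Sox4 over Sox12 was 2.42, 2.23 and 2.31 in the Myt1-/- samples, against 1.94, 1.79 and 1.93 in the WT samples. As a log2 difference, Sox4 minus Sox12 was 0.30 higher in Myt1-/- and Sox11 minus Sox12 was 0.27 higher, each with groups apart (exact two-sided permutation p = 0.1, 0.2 after Benjamini-Hochberg adjustment over 6 pairs). That is the smallest p that 3 samples against 3 allow, so these tests could not reach 0.05. Both differences hold the same Sox12 values. Sox4 minus Sox11 differed by 0.03 (exact permutation p = 0.7), less than its SD of 0.0903 in Myt1-/- and 0.121 in WT. A ratio of TPM within a sample does not depend on how samples are scaled. The log2 differences carry the offset of 1 TPM, so they are not fully free of scaling. Either measure describes unequal differences in these samples without showing which gene moved.

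**Figure D2:**
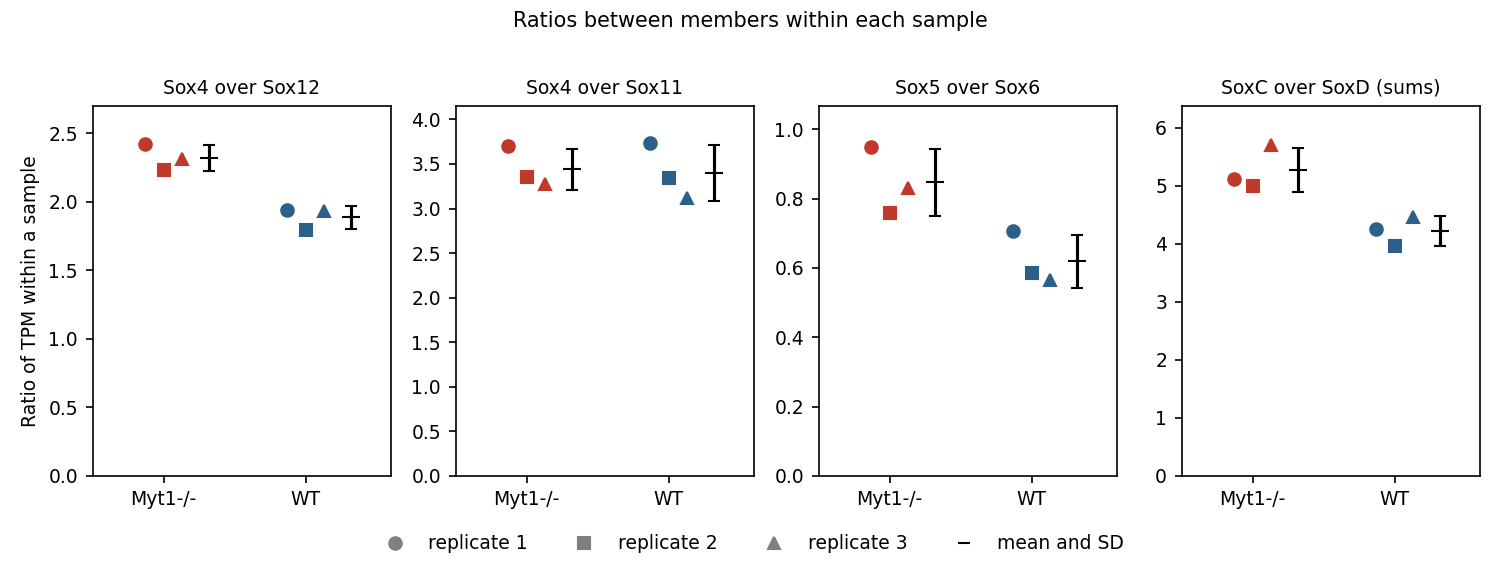
Ratios of TPM within each sample (vertical axes from 0, no unit) for Sox4 over Sox12, Sox4 over Sox11, Sox5 over Sox6 and the SoxC sum over the SoxD sum, in Myt1-/- (red, left) and WT (blue, right), with symbols for the replicate and bars for the mean and SD. The groups are apart for Sox4 over Sox12 (2.23 to 2.42 in Myt1-/-, 1.79 to 1.94 in WT) and overlap for Sox4 over Sox11 (3.27 to 3.70 in Myt1-/-, 3.12 to 3.74 in WT).

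Among the SoxD genes Sox6 had the widest difference, and it was lower in Myt1-/-. Sox6 was at 11.01, 11.85 and 10.64 TPM in the Myt1-/- samples, against 11.55, 16.08 and 14.31 TPM in the WT samples. The Myt1-/- samples were close to each other, 2 of them lay below every WT sample, and WT replicate 1 lay inside their range. The mean was 11.2 ± 0.620 TPM in Myt1-/- and 14.0 ± 2.28 TPM in WT (SD, n = 3 each), which is 0.799 of the WT level. The log2 change was -0.29 (SE 0.13, 95% interval -0.59 to 0.01), with an unadjusted p of 0.0587 and an adjusted p of 0.671 by limma. Without WT replicate 1 it was -0.41 (unadjusted p of 0.00494, adjusted p of 0.554 by limma), and without WT replicate 2 it was -0.19 (adjusted p of 0.743).

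Sox5, the partner of Sox6 in precursors, was at 10.46, 8.99 and 8.85 TPM in the Myt1-/- samples, against 8.17, 9.42 and 8.09 TPM in the WT samples. The groups overlapped, and Myt1-/- replicate 1 was the highest of the 6. The log2 change was 0.13 (95% interval -0.13 to 0.38, adjusted p of 0.784 by limma). Sox13, a SoxD factor known to oppose Wnt signalling in mouse T cells, was at 6.23, 7.92 and 8.61 TPM in the Myt1-/- samples, against 6.95, 7.17 and 7.63 TPM in the WT samples. The Myt1-/- samples lay on both sides of the WT samples. The log2 change was 0.05 (95% interval -0.27 to 0.36, adjusted p of 0.941 by limma), and -0.04 without Myt1-/- replicate 3.

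The SoxD sum was 27.70, 28.76 and 28.10 TPM in the Myt1-/- samples, against 26.67, 32.67 and 30.03 TPM in the WT samples, and the groups overlapped. The share of Sox6 in that sum was 39.6% ± 1.67 in Myt1-/- and 46.7% ± 3.06 in WT (SD, n = 3 each). Sox5 over Sox6 was 0.950, 0.759 and 0.832 in the Myt1-/- samples, against 0.707, 0.586 and 0.565 in the WT samples, so the groups were apart. The log2 difference Sox5 minus Sox6 was 0.42 higher in Myt1-/- (exact two-sided permutation p = 0.1, 0.2 adjusted over the 6 pairs). SoxC over SoxD, as sums, was 5.12, 5.0 and 5.71 in the Myt1-/- samples, against 4.25, 3.96 and 4.46 in the WT samples, with groups apart. This ratio was not tested, and it holds the Sox4 and Sox6 values already described, so it is no separate result. Its ratio of means was 1.25, and 1.20 to 1.29 with 1 sample left out.

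Sox21 was nearly equal in the groups. It was at 7.71, 8.43 and 9.44 TPM in the Myt1-/- samples, against 10.19, 8.01 and 7.65 TPM in the WT samples. WT replicate 1 was the highest of the 6, and the Myt1-/- samples lay within the WT range. The log2 change was -0.01 (95% interval -0.33 to 0.31, adjusted p of 0.991 by limma), and it was 0.11 without WT replicate 1 and 0.05 without Myt1-/- replicate 1.

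**Figure D3:**
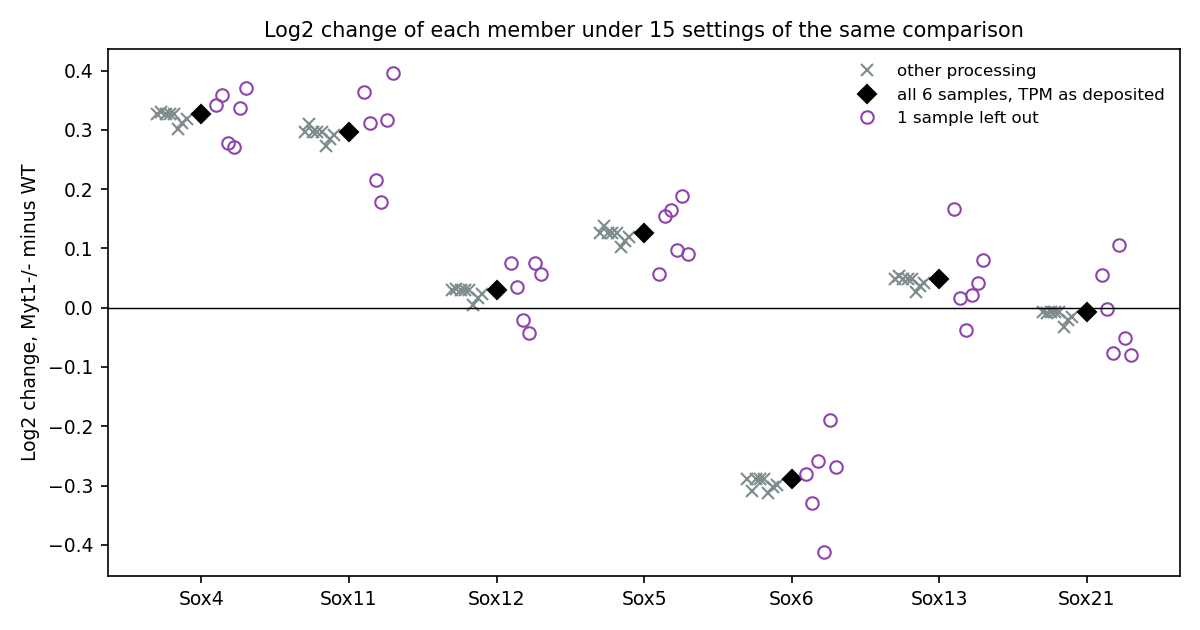
Log2 change, Myt1-/- minus WT (vertical axis), of each of the 7 Sox genes with all 6 samples and TPM as deposited (black diamonds), under 8 other ways of processing (grey crosses) and with 1 sample left out (open purple circles). Sox4 stays between 0.27 and 0.37 and Sox6 between -0.41 and -0.19, while Sox12, Sox13 and Sox21 have values on both sides of 0.

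The order of levels was the same at the top in both groups. Sox4 came first, then Sox12, Sox11 and Sox6, and the ranges of these neighbours did not overlap in either group. In Myt1-/- the order went on with Sox5 at 9.43, Sox21 at 8.53 and Sox13 at 7.59 TPM on average, and the ranges of neighbours overlapped. In WT it went on with Sox21 at 8.62, Sox5 at 8.56 and Sox13 at 7.25 TPM. There Sox21 and Sox5 overlapped, and Sox13 lay below Sox5 without overlap.

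The other Sox genes give the setting of these values. Of 13, 10 were tested, and 0 were higher and 2 lower in Myt1-/- at an unadjusted p under 0.05, against 4.32% and 3.13% of all genes. The median log2 change was 0.05 (-0.05 without WT replicate 3). The count was 1 without Myt1-/- replicate 3 and without WT replicate 2. The 2 were the SoxE genes Sox10 and Sox8, which promote oligodendrocyte differentiation. Sox10 was at 28.77, 27.21 and 22.82 TPM in the Myt1-/- samples, against 43.34, 35.34 and 32.79 TPM in the WT samples (log2 change -0.48, adjusted p of 0.669 by limma). Sox8 was at 19.51, 21.02 and 17.27 TPM in the Myt1-/- samples, against 23.04, 24.08 and 22.89 TPM in the WT samples (log2 change -0.27, adjusted p of 0.669 by limma). For both, every Myt1-/- sample lay below every WT sample, as in 5.38% of all genes tested. This was so for none of the 7 members, a number too small to set against that share. The SoxB1 factor Sox3 was above every WT sample in every Myt1-/- sample, at 5.75 ± 0.807 TPM in Myt1-/- and 4.58 ± 0.573 TPM in WT (SD, n = 3 each), with an unadjusted p of 0.0972. Sox2, the SoxB1 factor that Sox21 counters, averaged 53.7 TPM in Myt1-/- and 54.4 TPM in WT, and Sox14, the other SoxB2 gene, 2.20 TPM in Myt1-/- and 2.13 TPM in WT.

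**Figure D4:**
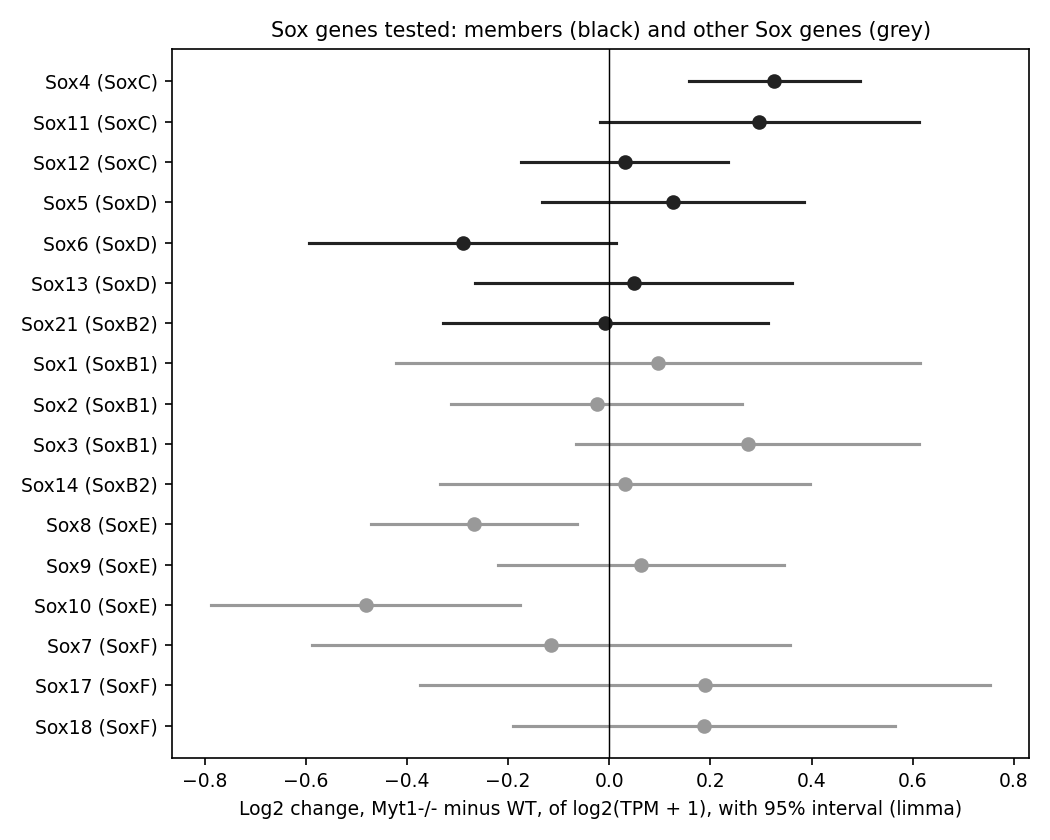
Log2 change, Myt1-/- minus WT (horizontal axis), with its 95% interval from limma for the 7 members (black) and the 10 other Sox genes tested (grey). Of the black intervals that of Sox4, 0.16 to 0.50, leaves out 0, and of the grey ones those of Sox8 and Sox10 do; no gene passed an adjusted p of 0.05.

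Genes around SoxC in neurons were read as lists, by counts and medians with no test of the list. Over all genes tested, 4.32% were higher and 3.13% lower at an unadjusted p under 0.05 by limma. These shares are the background for the counts of every list below. Of 12 neuronal differentiation genes, among them the Sox4 and Sox11 targets Tubb3, Dcx and Tead2, 11 were tested, and 3 were higher and 1 lower at an unadjusted p under 0.05, with 0 past an adjusted p by limma. The median log2 change was 0.05, and 0.0008 without WT replicate 1. Without WT replicate 1, WT replicate 2 or Myt1-/- replicate 3, 2 genes of the list in all had an unadjusted p under 0.05. Tead2, a Hippo pathway transcription factor, was at 25.80, 27.72 and 37.00 TPM in the Myt1-/- samples, against 17.54, 20.59 and 25.68 TPM in the WT samples (log2 change 0.48, adjusted p of 0.669 by limma). Its lowest Myt1-/- value was just above its highest WT value. Dcx, a microtubule protein of migrating neurons, averaged 184 ± 14.3 TPM in Myt1-/- and 157 ± 15.7 TPM in WT (SD, n = 3 each), and Neurod1, a proneural factor, 7.26 ± 0.223 TPM in Myt1-/- and 4.39 ± 0.350 TPM in WT. Nefl, a neurofilament of more mature axons, was the lower gene, at 680 ± 45.2 TPM in Myt1-/- and 818 ± 70.8 TPM in WT. Tubb3, the neuronal tubulin, was at 1274 TPM in Myt1-/- and 1280 TPM in WT, with a 95% interval of the log2 change of -0.12 to 0.11.

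Of 8 signalling and neurogenic genes 7 were tested, with 3 higher and 0 lower at an unadjusted p under 0.05 and a median log2 change of 0.44. Among them were Dll3, a Notch ligand family member, at 10.1 ± 0.991 TPM in Myt1-/- and 6.18 ± 0.197 TPM in WT, and the histone methyltransferase Ezh2, at 23.3 ± 4.59 TPM in Myt1-/- and 15.7 ± 2.61 TPM in WT (SD, n = 3 each). Tcf7l2 of the same list went the other way, with every Myt1-/- sample below every WT sample. It was at 3.04 ± 0.19 TPM in Myt1-/- and 3.90 ± 0.516 TPM in WT (unadjusted p of 0.0868 by limma). The Notch target Hes5 was lowest in WT replicate 1, at 23.15 TPM, and the list's median was 0.17 without that sample. The count under 0.05 was 1 without Myt1-/- replicate 2 or 3, and 5 without WT replicate 3. In a list of 10 genes on the balance of SoxB1 and SoxB2 factors, 8 were tested, and 1 was higher and 0 lower at an unadjusted p under 0.05, with a median of 0.06 (0.01 without WT replicate 3, 0.11 without WT replicate 2). Without any 1 of the Myt1-/- samples, none was under 0.05. Markers of immature neurons share Dcx, Tubb3, Stmn2 and Neurod1 with the neuronal list and Dll3 with the signalling list. They lay mostly in the direction of Sox4 and Sox11. Of 10 tested 3 were higher and 0 lower at an unadjusted p under 0.05, against 4.32% and 3.13% of all genes. The 3 were Dll3, Dcx and Neurod1, which the lists above already count. For 4 of the markers every Myt1-/- sample lay above every WT sample, against 8.91% of all genes. The median of the markers was 0.20 (0.13 without WT replicate 1). Their summed level was 2913 to 3037 TPM in Myt1-/- and 2774 to 2986 TPM in WT. None of them was at 0 in all samples. The part of immature neurons in the Sox4 and Sox11 values was not tested.

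Genes around SoxD in glia differed strongly in level. Of 8 glial genes, all tested, 0 were higher and 4 lower at an unadjusted p under 0.05, against 4.32% and 3.13% of all genes. Their median log2 change was -0.79. The myelin gene Mbp, whose promoter SoxD proteins are known to act on, was at 55.26, 39.82 and 41.04 TPM in the Myt1-/- samples, against 477.42, 313.80 and 167.93 TPM in the WT samples. The groups were far apart and the WT samples also differed widely among themselves. Another was the myelin gene regulator Myrf, at 1.16 ± 0.498 TPM in Myt1-/- and 6.13 ± 2.61 TPM in WT (SD, n = 3 each). Pdgfra, which Sox5 and Sox6 help to keep on in precursors, was at 51.36, 45.05 and 44.17 TPM in the Myt1-/- samples, against 46.96, 55.57 and 52.38 TPM in the WT samples (log2 change -0.14, 95% interval -0.34 to 0.07). Precursor markers as a whole summed to 520 to 571 TPM in Myt1-/- and 504 to 575 TPM in WT. Of the 10, 1 was higher and 3 lower at an unadjusted p under 0.05 by limma. None was at 0 in all samples, and the median was -0.04. The lower genes were Sox10, Gpr17 and Nkx2-2. Gpr17 was at 22.2 ± 0.869 TPM in Myt1-/- and 41.9 ± 3.64 TPM in WT (SD, n = 3 each). Nkx2-2 was at 8.04 ± 0.552 TPM in Myt1-/- and 19.9 ± 3.61 TPM in WT. The higher gene was Olig1, at 156 ± 10.1 TPM in Myt1-/- and 123 ± 14.7 TPM in WT. Markers of myelinating oligodendrocytes summed to 162 to 198 TPM in Myt1-/- and 397 to 822 TPM in WT, with 9 of 10 lower at an unadjusted p under 0.05 and none at 0 in all samples. Their part in the Sox5 and Sox6 values was not tested.

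Of 10 partners and corepressors of SoxD, 3 were higher and 1 lower at an unadjusted p under 0.05, against 4.32% and 3.13% of all genes. The median log2 change was 0.14 (0.086 without WT replicate 1). Tcf4, a bHLH factor, was at 62.8 ± 2.23 TPM in Myt1-/- and 55.5 ± 2.03 TPM in WT, Nfib, a gliogenic factor, at 29.8 ± 1.39 TPM in Myt1-/- and 25.7 ± 1.18 TPM in WT, and the chromatin protein Daxx at 29.7 ± 0.806 TPM in Myt1-/- and 26.4 ± 1.6 TPM in WT (SD, n = 3 each). The lower gene was Sox10. In all, 2 genes of this list had an unadjusted p under 0.05 after median-ratio or upper-quartile scaling and without Myt1-/- replicate 1 or WT replicate 2, and 1 did without Myt1-/- replicate 3.

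SoxD genes are also used outside the nervous system, and 2 further lists follow that. In cartilage, where Sox5 and Sox6 work with Sox9, 9 of 12 genes were tested. Of these, 0 were higher and 2 lower at an unadjusted p under 0.05, against 4.32% and 3.13% of all genes. The median log2 change was -0.29 (-0.16 without WT replicate 3). Without WT replicate 1, 5 genes of the list had an unadjusted p under 0.05. The 2 were Col11a2, at 3.46 ± 0.573 TPM in Myt1-/- and 7.53 ± 2.24 TPM in WT, and Col9a3, at 15.4 ± 0.324 TPM in Myt1-/- and 21.2 ± 3.85 TPM in WT (SD, n = 3 each). Col2a1, the main collagen of cartilage, was at 2.54, 2.74 and 2.09 TPM in the Myt1-/- samples, against 2.62, 3.82 and 8.99 TPM in the WT samples. Markers of cartilage and bone summed to 10.8 to 12.3 TPM in Myt1-/- and 10.3 to 29.0 TPM in WT, with 1 of 10 at 0 in every sample, and their sum was highest in WT replicate 3, while Sox6 was highest in WT replicate 2. Their part in the Sox6 values was not tested. In red cells, where Sox6 shuts off embryonic globins in mice, 5 of 11 genes were tested, none had an unadjusted p under 0.05, the median was 0.49 (-0.02 without WT replicate 1, 1.30 without WT replicate 3), and the sum of the list ran from 1822 to 6554 TPM in Myt1-/- and from 1269 to 7535 TPM in WT. The embryonic globin Hbb-y was at 0, 1.06 and 1.35 TPM in the Myt1-/- samples, against 0.84, 0.24 and 0.42 TPM in the WT samples, below the level needed for a test.

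**Figure D5:**
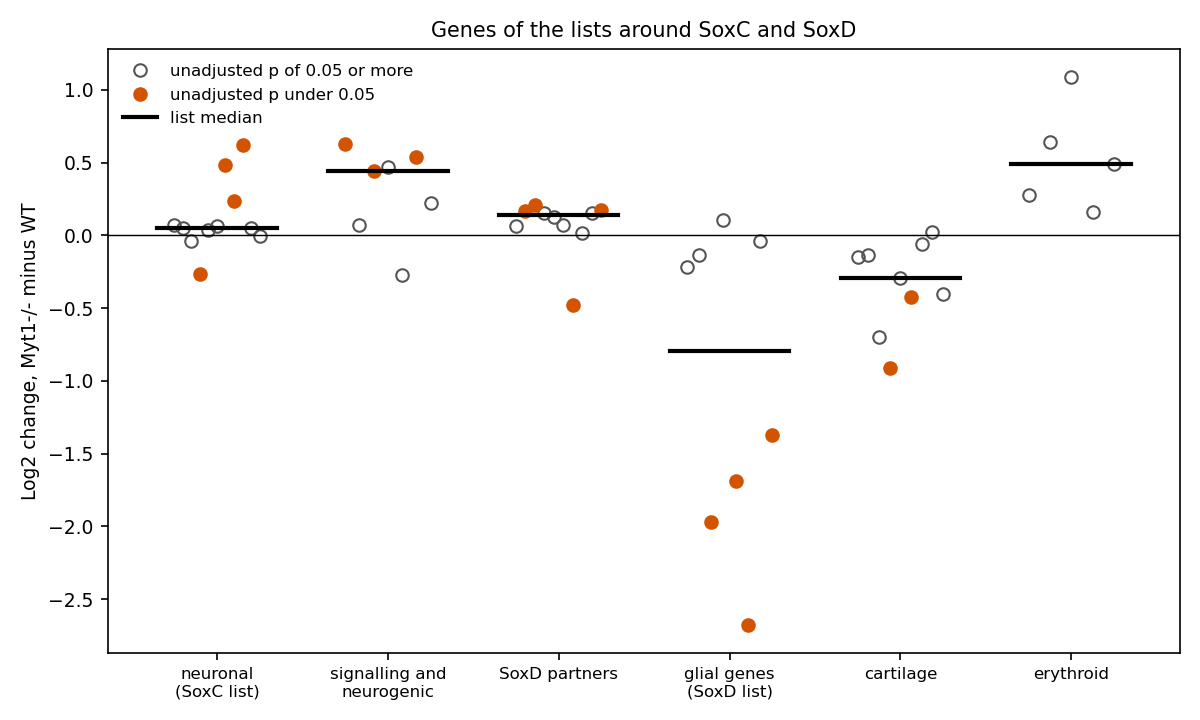
Log2 change, Myt1-/- minus WT (vertical axis), of each tested gene of 6 lists around SoxC and SoxD, with filled orange points for an unadjusted p under 0.05, open points for the rest and black lines for the list medians. The glial list reaches lowest, with a median of -0.79, and the erythroid list has a median of 0.49 with no filled point.

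The genes whose log2 levels followed each member most closely over the 6 samples were Hdac9 and Gprin3 for Sox4 (Pearson r of 0.99 for each), Pola2 and Mars2 for Sox11 (1.00 for each), and Akr1c19 and Dtx4 for Sox12 (0.99 for each). They were Bcas2 (1.00) and Ube2n (0.99) for Sox5, Lsm2 and Eno1 for Sox6 (0.99 for each), Lrrc14 and Tdrd1 for Sox13 (0.98 for each), and Tymp (0.99) and Ino80b (0.98) for Sox21. With 6 samples many genes reach such values, and between 84 genes for Sox21 and 597 for Sox11 had an r over 0.9, so these names describe likeness in this table only. Hdac9 was at 9.75, 9.86 and 10.47 TPM in the Myt1-/- samples, against 8.37, 8.78 and 9.08 TPM in the WT samples.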

How the data were processed

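RNA sequencing values of 3 Myt1-/- and 3 WT thoracic spinal cords were taken as deposited by the authors, in TPM with 2 decimals. RSEM, DESeq2 and the build GRCm38.p6 were used per the submitters' processing notes, which give no role for them. No source used here names the aligner or the annotation release. TPM hold no read numbers, so the depth is unknown and precision rests on the spread between samples. The table has 1 more column of per-sample values that matches no label, and it was not used.

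Genes with a mean of at least 1 TPM over the 6 samples (15962; 39525 left out) were fitted with limma 3.58.1 in R 4.3.3 on log2(TPM + 1), with a trend in the variance prior and genotype as the only term. P-values are two-sided, Benjamini-Hochberg adjusted over all genes tested, and the threshold was an adjusted p of 0.05. The fit was tested on simulated data. Single differences between 2 members used exact permutation tests (scipy 1.17.1). Gene models are from GENCODE M21, upstream sequences from RefSeq; figures used matplotlib 3.10.9 in Python 3.11.15.

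The members and lists were chosen with earlier results of these data known. Named genes are the members, Myt1, the other Sox genes, up to 4 genes per list with the smallest p, and the 2 genes most like each member, though some genes under this rule are not reported here; Tubb3, Pdgfra, Hbb-y, Gm4675, Gm26735 and Gm43493 were added after their values were seen. Alternatives were no variance trend, a pseudocount of 0.1 TPM, 2 other filters, replicate number as a block, 3 other scalings and leaving out each sample in turn. Sums and ratios of members under these were added after seeing the data.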

Additional observations from a re-analysis of the deposited data

How the results depend on the processing

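None of the 7 Sox genes passed an adjusted p of 0.05 in any of the 14 alternatives. Sox4, Sox5, Sox6 and Sox11 kept their sign in all of them. With 1 sample left out the log2 change, Myt1-/- minus WT, lay between 0.27 and 0.37 for Sox4, 0.06 and 0.19 for Sox5, -0.41 and -0.19 for Sox6, and 0.18 and 0.40 for Sox11. It lay on both sides of 0 for Sox12 (-0.042 to 0.076), Sox13 (-0.038 to 0.17) and Sox21 (-0.080 to 0.11), with the cause not tested. Likewise the log2 difference Sox4 minus Sox11 ran from -0.026 to 0.094 and Sox5 minus Sox13 from -0.11 to 0.20.

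Over all genes, 0 passed with all samples, 0 to 7 with 1 sample left out (7 without WT replicate 2, no Sox gene among them), and 1, Gm43493, with a pseudocount of 0.1 TPM. With 1 sample left out, 387 to 910 genes were higher and 305 to 751 lower at an unadjusted p under 0.05. The members with an unadjusted p under 0.05 numbered 1, but 3 after upper-quartile scaling (Sox4, Sox6 and Sox11; 7.69% of all genes). They numbered 2 after median-ratio scaling (7.56% of all genes), with nuclear genes only (7.75%), with the replicate block (7.14%), without WT replicate 1 (7.83%) and without WT replicate 3 (9.39%).

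Both groups carry replicate numbers 1 to 3, and no label ties a number to a litter, day or batch. Deviations of same-numbered samples correlated at 0.031, -0.070 and 0.061, so the numbers were not taken as pairs. With the replicate block 1140 genes had an unadjusted p under 0.05 and 0 passed; the log2 changes were the same, and Sox4 (unadjusted p of 0.00258, adjusted p of 0.609 by limma) and Sox11 (0.0122 and 0.680) were under 0.05 before adjustment. Depth could not be assessed from TPM.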
